A study of Mus musculus with 24 samples.

Results

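The genes of the cytosolic ribosomal proteins were followed in RNA-seq of immune (CD45+) cells, bead-enriched from mouse breast tumors of the EMT6-hHER2 line. Members were the genes whose symbols begin with Rpl or Rps followed by digits, an optional letter a, l, x or y and further digits, together with Rplp0, Rplp1, Rplp2 and Rpsa. This gave 83 of the 16996 genes with values, 50 of the large subunit, stalk genes included, and 33 of the small subunit. The rule uses names and no measured value, though it was set with earlier results of these data known. All 83 were tested, since no filter on low values was added to that of the authors. Of the 83, 82 are annotated as protein coding and 1, Rps4l, as a transcribed processed pseudogene.

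Cytosolic ribosomal proteins assemble with ribosomal RNA in the nucleolus into the small subunit, which reads the mRNA, and the large subunit, which joins amino acids. Their genes are among the most strongly transcribed in any growing cell. Their mRNAs begin with a terminal oligopyrimidine (TOP) run, a C followed by further pyrimidines, through which the mTOR kinase controls their translation. Activated lymphocytes raise ribosome production as they grow, whereas resting immune cells keep it low.

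The study asked how T-PNU, an antibody-drug conjugate that joins the HER2 antibody trastuzumab to an anthracycline derivative, alters the immune cells of tumors. It was set against T-DM1, trastuzumab joined to a tubulin inhibitor, against trastuzumab alone and against no treatment. Female Balb/c mice of WT genotype, 10-12 weeks old per the labels, were implanted with EMT6-hHER2 cells in the mammary fat pad, and all 4 groups carried such tumors. The line is a single-cell clone of EMT6 that expresses human HER2, so 1 tumor clone stands for the disease.

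When tumors reached 80 mm3, 6 mice were left untreated and 6 each received 1 intravenous dose. The dose was 1 mg/kg of T-PNU, 15 mg/kg of T-DM1 or 20 mg/kg of trastuzumab, so the doses of the treatments differ. Cells were taken on day 10, and 1 library was made per mouse, 24 in all. By the methods of the study, T-PNU tumors were by then smaller than at treatment. The paper calls the untreated, trastuzumab and T-DM1 tumors non-responding and some T-PNU samples low-responding. Response of the tumor therefore cannot be told apart from treatment in the comparisons with T-PNU. The heatmaps of the study show 20 of them and leave out 4, which are B1 and C1 of the untreated mice and E2 and B3 of those given trastuzumab. All 24 are reported first here. The column headers carry a number that runs in one series for untreated and in another for treated samples. What it stands for is not stated, and it cannot be told apart from treatment. Values are normalised log2 expression values as deposited. No read counts accompany them, so depth is unknown.

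As a check of the labelled cells, all 4 pan-immune markers (Ptprc, Cd52, Coro1a and Laptm5) averaged at least 13.1 on the log2 scale, against a median of 8.80 over all genes. Markers of other cells were present too. All 8 genes of the fibroblast and stroma list and all 8 of the tumor epithelial list had values. The lowest were Lum at 7.31 and Krt5 at 4.04. The highest of the fibroblast and stroma list, Col1a2, averaged above every pan-immune marker. The highest of the tumor epithelial list, Krt8, averaged just below Cd52, the lowest pan-immune marker. RNA of stroma and tumor cells was therefore not slight by these genes.

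The stretch around the annotated transcription start is shown for 9 members, because an oligopyrimidine run there is a known feature of this gene class. Letters run 5′ to 3′ on the coding strand, from 15 bases before the RefSeq start of GRCm38.p6 to 15 after it, and capitals mark the oligopyrimidine run from its first C within 5 bases of the start. Pyrimidines farther before the start stand in lower case, as in Rpl7a and Rpl35. The first 7 differed between T-PNU and T-DM1 in the test given further on, and the last 2, Rplp2 and Rps27, did not pass it.
Rpl15 (chr14:18270972-18271001, minus strand): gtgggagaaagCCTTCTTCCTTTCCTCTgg
Rpl27a (chr7:109519180-109519209, plus strand): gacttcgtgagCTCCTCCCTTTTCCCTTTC
Rpl35 (chr2:39005117-39005146, minus strand): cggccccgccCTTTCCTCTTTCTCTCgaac
Rpl7a (chr2:26910792-26910821, plus strand): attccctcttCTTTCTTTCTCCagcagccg
Rps26 (chr10:128626492-128626521, minus strand): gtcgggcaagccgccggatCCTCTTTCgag
Rps18 (chr17:33955651-33955680, minus strand): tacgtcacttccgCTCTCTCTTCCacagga
Rpl37 (chr15:5116598-5116627, plus strand): agtttcctgggcggaagcttatccacagga
Rplp2 (chr7:141447636-141447665, plus strand): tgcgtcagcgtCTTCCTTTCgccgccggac
Rps27 (chr3:90213634-90213663, minus strand): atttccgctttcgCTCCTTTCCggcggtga

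In these windows the run lies at or beside the start in 8 of the 9, and the Rpl37 window holds none within 5 bases of its RefSeq start. Of the 62 members with a RefSeq promoter window, 29 (46.8%) had a C and at least 4 pyrimidines within 5 bases of a start, against 21.1% of the 26963 other genes. In the 300 bases from 250 before to 50 after a start, read on both strands, CCGGAA, the core bound by ETS factors, was found in 35 of 62 members (56.5%) and 16.6% of other genes. AAGATGG, the core of the YY1 site, was found in 10 members (16.1%) against 7.26%. GGGCGG, the core of the SP1 site, was found in 38 (61.3%) against 38.1%, and TATAAA in 7 (11.3%) against 15.7%. A gene with several starts was counted if any window held the letters, and the motifs can overlap each other. A match describes the letters only.

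Most members were at a high level. The median member averaged 14.15 over the 24 samples, against 8.80 for all genes, and 12 of the 100 genes with the highest values were members. Together the 83 genes held between 3.82% (trastuzumab H2) and 6.47% (untreated B1) of the summed linear values of a sample. Only 4 members averaged under 8: Rpl39l at 2.87, Rpl3l at 3.64, Rpl24 at 4.50 and Rps4l at 4.59. The next was Rpl29 at 10.59.

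Rpl3l is the striated muscle form of Rpl3, and Rpl39l the testis form of Rpl39. Rpl24 is an ordinary large subunit gene, but 71.5% of its transcript is shared with Gm28037 on the same strand, and the stated counting does not say how such reads were assigned. Rpl13a (59.3%) and Rps10 (53.6%) also share much of their annotated transcript with another gene on the same strand. Ribosomal protein genes have many processed copies elsewhere in the genome, so the values of single members are uncertain where reads could be split between copies.

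Per length, on the scale of log2 value minus log2 transcript length in kilobases, Rps27 (16.40), Rps29 (15.74) and Rps12 (15.71) stood highest and Rpl3l (3.18), Rpl39l (3.18) and Rps4l (4.67) lowest. Transcripts of the members had a median length of 886 bases, from 345 in Rps27 to 5179, against 2656 for all genes. Their median GC content was 51.6%, against 50.1%. The 83 genes lie on 19 chromosomes, 14 of them on chromosome 7.

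The members moved together from sample to sample. For each sample, the mean deviation of the 83 genes from their own averages was taken as their joint level. Large and small subunit genes gave nearly the same level (Pearson r = 0.98 over the 24 samples, as a description), and 69.0% of the variance among the members lay on their first principal component. The joint level ran from -0.29 in trastuzumab H2 to 0.40 in untreated B1, a 1.61-fold range on the linear scale.

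Untreated samples had joint levels from -0.16 to 0.40, with a median of -0.02. Trastuzumab samples ran from -0.29 to 0.18, with a median of -0.07. T-DM1 samples ran from -0.05 to 0.25 around 0.10, and T-PNU samples from -0.26 to 0.24 around -0.12. The ranges of all 4 groups overlapped, and the division into groups accounted for 19.7% of the variance of the joint level. The means were 0.03 ± 0.19 (SD, n = 6) in untreated, -0.06 ± 0.15 (SD, n = 6) in trastuzumab, 0.11 ± 0.12 (SD, n = 6) in T-DM1 and -0.08 ± 0.20 (SD, n = 6) in T-PNU samples. Untreated B1 stood far above its group, and without it the untreated mean was -0.05 ± 0.0793 (SD, n = 5). Among T-PNU samples G1, H1 and A2 were at -0.23, -0.26 and -0.23, B2 and D2 near 0, and C2 at 0.24.

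**Figure D1:**
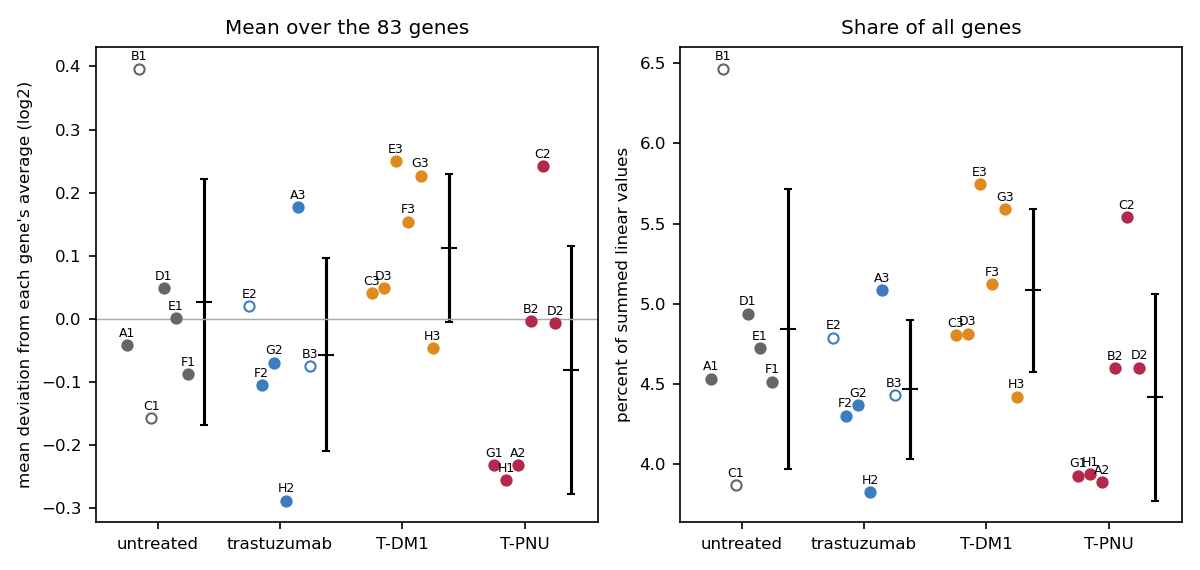
Joint level of the 83 ribosomal protein genes (left, mean log2 deviation from each gene's average) and their percent of the summed linear values (right) in each sample by group; open circles are the 4 samples not shown in the heatmaps of the study, and bars give the mean and SD of the 6 samples. T-DM1 samples sit between -0.05 and 0.25 and T-PNU samples between -0.26 and 0.24, and the 4 groups overlap.

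A few members did not follow the others. Rpl3l and Rpl39l correlated with the joint level at r = -0.30 and -0.27 over the 24 samples, Rps27l at -0.10, Rps4l at 0.10, Rpl7l1 at 0.13 and Rpl22l1 at 0.38. All 6 are the minor partners of a paralog pair. Each r includes the gene itself in the joint level, and 3 of these genes are at low values.

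**Figure D2:**
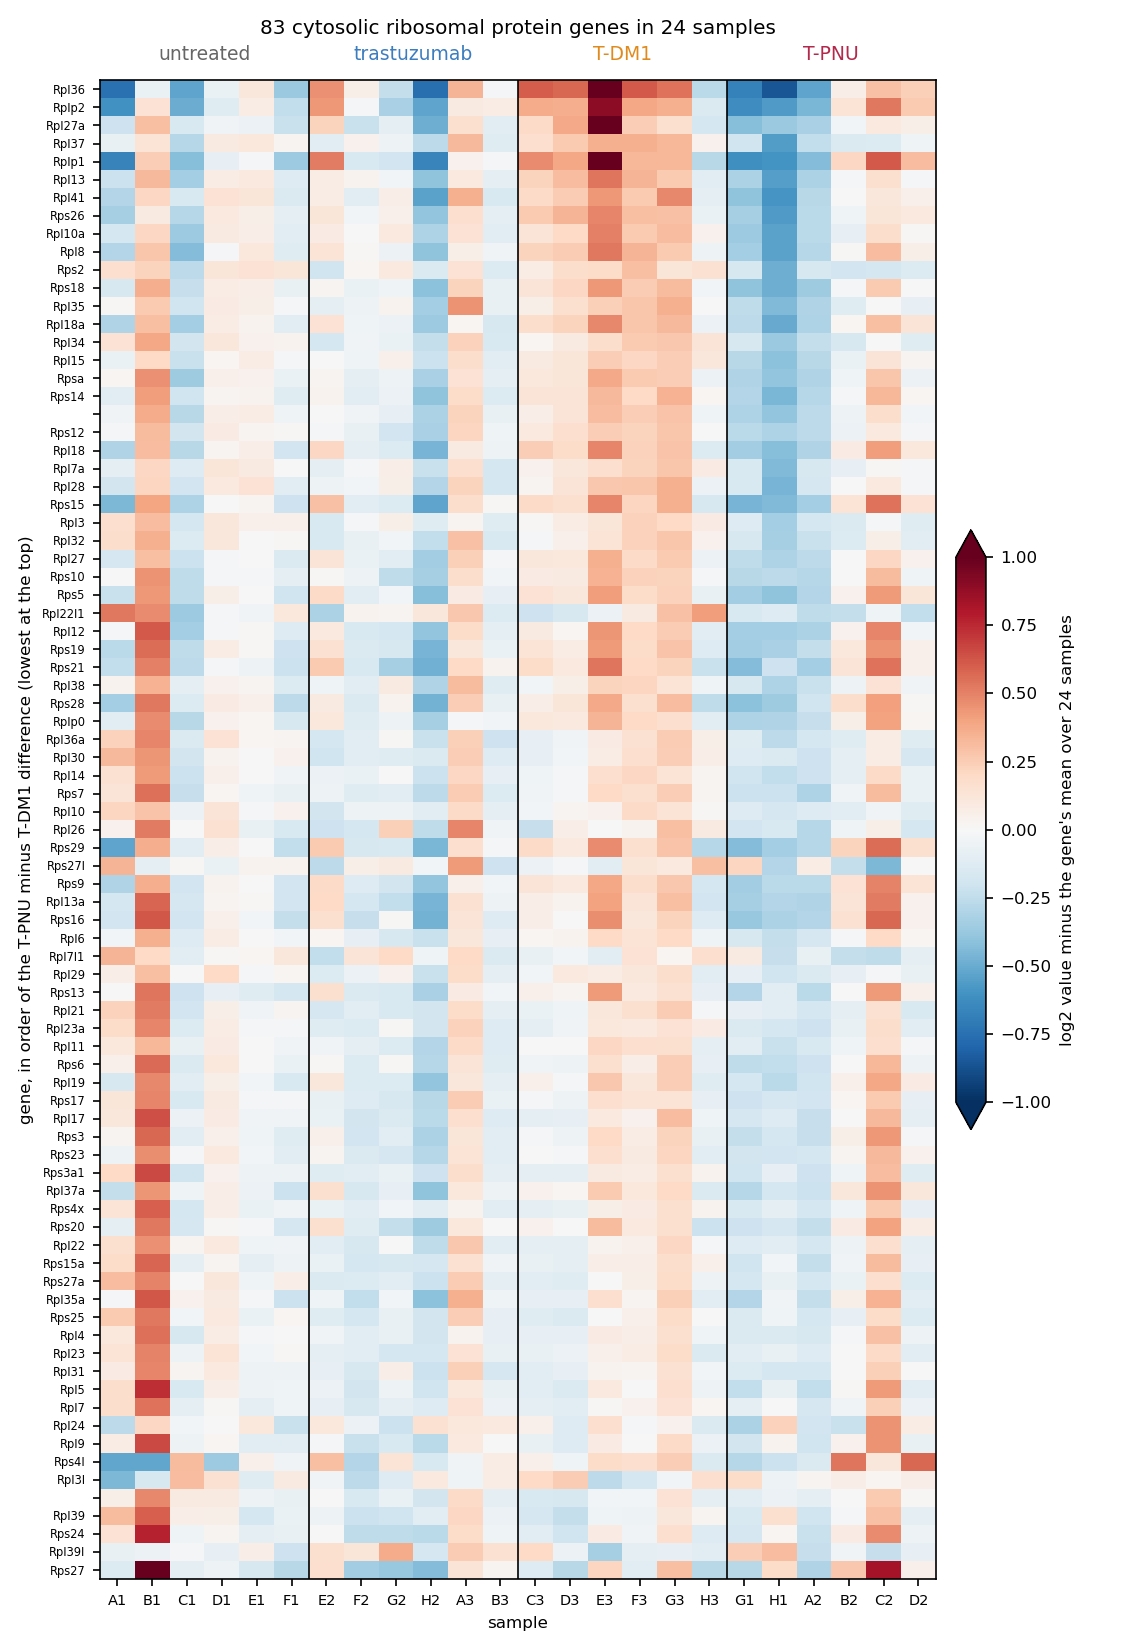
Deviation of each of the 83 genes (rows, in the order of their T-PNU minus T-DM1 difference) from its mean over 24 samples (columns, by group), on a log2 scale from -1 to 1. Untreated B1 is red in most rows, T-DM1 E3 has the highest Rpl36 value (13.44), and T-PNU G1, H1 and A2 are blue in most rows.

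In bulk RNA a change in the share of cells of a type and a change in RNA per cell cannot be told apart, here and in all that follows. The comparison in which members changed most was T-PNU with T-DM1, 2 conjugates of the same antibody with different drugs. In T-PNU samples 19 of the 83 genes (22.9%) were lower and 0 higher (limma, adjusted p under 0.05 over all 16996 genes), where 17.4% of all genes tested were lower and 12.4% higher. The share of members called is thus close to that of all genes. Of the 83 differences, 74 were below 0, with a median log2 difference of -0.17 against 0.03 over all genes. The 19 were 14 large subunit genes (Rpl3, Rpl7a, Rpl8, Rpl10a, Rpl13, Rpl15, Rpl27a, Rpl28, Rpl32, Rpl34, Rpl35, Rpl36, Rpl37 and Rpl41) and 5 small subunit genes, among them Rps2, Rps12, Rps18 and Rps26. No difference reached 2-fold.

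**Figure D3:**
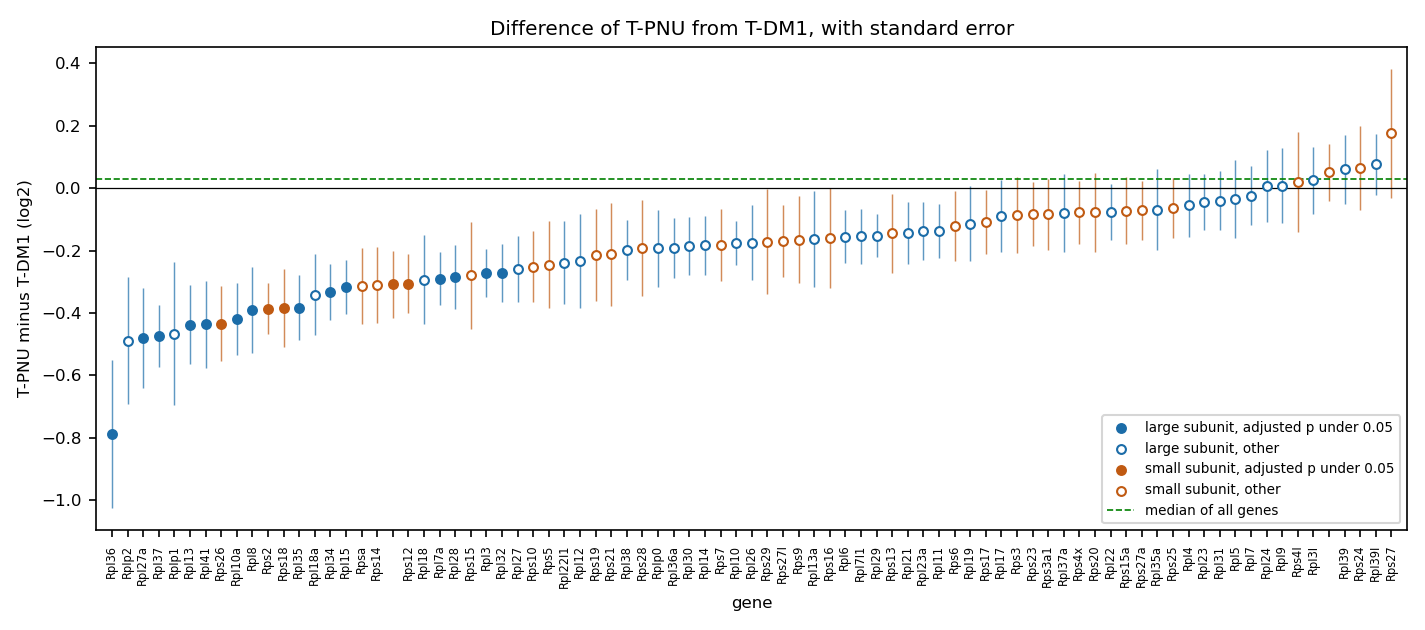
T-PNU minus T-DM1 difference of each member (log2, points) with its standard error (bars), large subunit in blue and small subunit in orange, filled where the adjusted p is under 0.05. Filled points number 19, all below 0, and the dashed line marks the median of all genes at 0.03.

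Rpl36, a large subunit protein gene on chr17:56613416-56614243 of GRCm38, had the lowest T-PNU minus T-DM1 difference. Its T-DM1 values ran from 11.98 to 13.44 with a median of 12.84, and its T-PNU values from 11.40 to 12.54 with a median of 12.02. Untreated samples ran from 11.50 to 12.36 around 12.03 and trastuzumab samples from 11.49 to 12.70 around 12.27. In words, 5 of the 6 T-DM1 samples were above every T-PNU sample, and the other, H3, lay within the T-PNU range. The log2 difference was -0.79 ± 0.24 (SE, adjusted p = 0.0174, limma).

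Rps2, a small subunit protein near the channel through which mRNA enters, separated the groups without overlap. Its T-PNU values ran from 13.54 to 13.90 with a median of 13.87, and its T-DM1 values from 14.11 to 14.34 with a median of 14.20. Untreated samples ran from 13.77 to 14.25 around 14.16, and trastuzumab samples from 13.84 to 14.18 around 13.97. All 6 T-PNU samples were thus below all 6 T-DM1 samples, by a mean log2 difference of -0.39 ± 0.0825 (SE, adjusted p = 0.00304, limma).

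Rpl37, a small zinc-binding protein of the large subunit, ran from 13.64 to 14.15 (median 14.02) in T-PNU and from 14.23 to 14.55 (median 14.49) in T-DM1 samples. Its log2 difference was -0.47 ± 0.0988 (SE, adjusted p = 0.00263, limma), with no overlap. Rpl3, which lies close to the site where peptide bonds form, ran from 15.00 to 15.32 (median 15.20) in T-PNU and from 15.34 to 15.56 (median 15.44) in T-DM1 samples. Its difference of -0.27 ± 0.0762 (SE) also came without overlap (adjusted p = 0.0116, limma).

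Rpl34, another large subunit gene, ran from 14.12 to 14.50 (median 14.34) in T-PNU and from 14.51 to 14.77 (median 14.65) in T-DM1 samples. The groups touched but did not overlap, at a log2 difference of -0.33 ± 0.0892 (SE, adjusted p = 0.00920, limma). In all, 7 of the 83 members (8.43%) had all 6 T-PNU samples below all 6 T-DM1 samples, Rpl3, Rpl7a, Rpl10, Rpl34, Rpl35, Rpl37 and Rps2, where 7.73% of all genes did. Rpl10, a late-joining large subunit protein with the smallest spread of all members (SD 0.13), did so at a difference of -0.18 that did not pass (adjusted p = 0.0605, limma).

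Rps26, a small subunit protein at the mRNA exit side, ran from 12.99 to 13.68 (median 13.40) in T-PNU and from 13.49 to 14.05 (median 13.86) in T-DM1 samples. The ranges overlapped, and the log2 difference was -0.43 ± 0.12 (SE, adjusted p = 0.0114, limma). Rpl27a, with a long oligopyrimidine run in the stretch printed, had a difference of -0.48 ± 0.16 (SE, adjusted p = 0.0282, limma), to which T-DM1 sample E3 contributed most, at 12.82 against 11.31 to 11.83 in T-PNU samples.

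**Figure D4:**
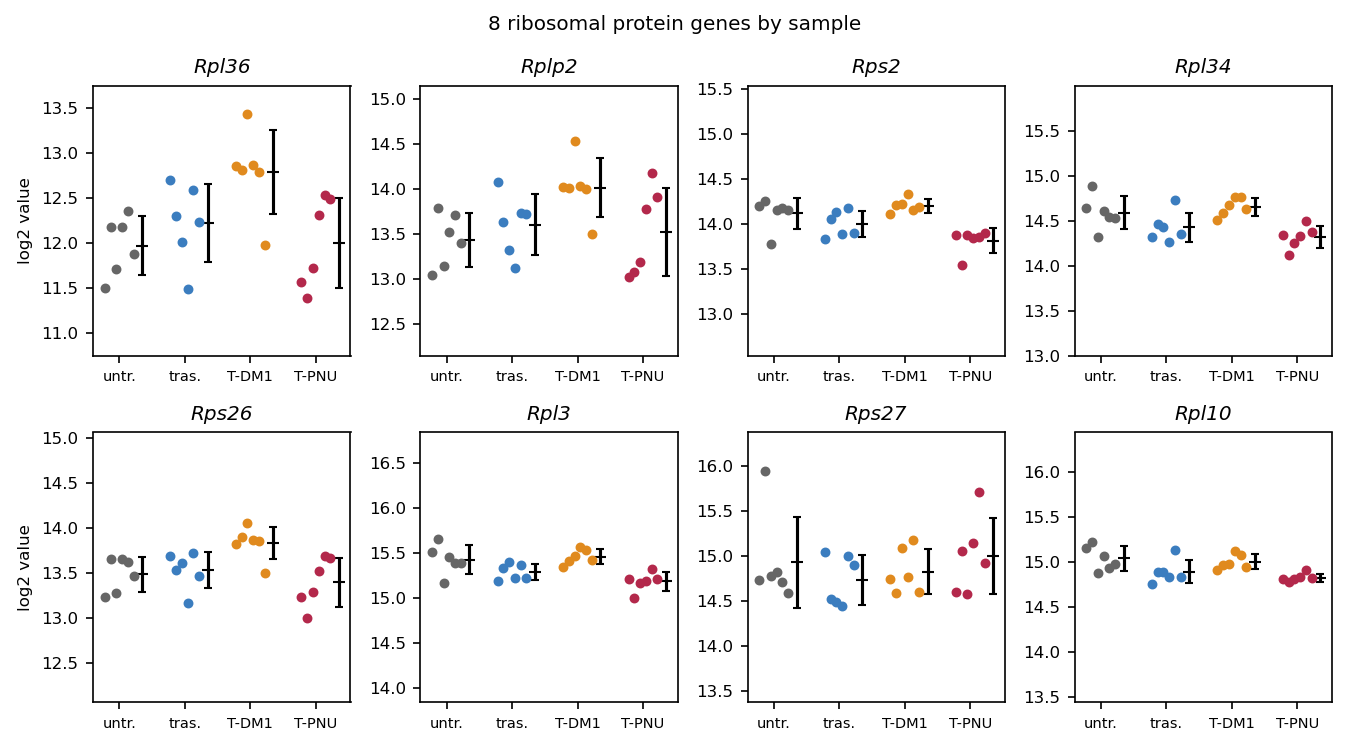
Log2 values of 8 members in each of the 24 samples by group, with the mean and SD of 6 samples beside each; every panel spans 3 log2 units. Rps2, Rpl34, Rpl3 and Rpl10 have all T-PNU points below all T-DM1 points, whereas Rpl36, Rplp2, Rps26 and Rps27 overlap.

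Rpl36 varied most among the members (SD 0.53 over 24 samples), followed by a pair of stalk genes. Rplp1 and Rplp2 encode the acidic proteins that recruit elongation factors, and Rplp0 anchors them to the large subunit. Rplp1 had an SD of 0.45 and Rplp2 of 0.41, against 0.22 for Rplp0 and a median of 0.21 over the members. Rplp2 ran from 13.04 to 13.79 in untreated, 13.12 to 14.08 in trastuzumab, 13.50 to 14.54 in T-DM1 and 13.03 to 14.17 in T-PNU samples. T-DM1 values overlapped those of every other group. T-PNU minus T-DM1 was -0.49 ± 0.20 (SE) for Rplp2 and -0.47 ± 0.23 (SE) for Rplp1, and neither passed (adjusted p = 0.0698 and 0.122, limma). Rpsa, a small subunit protein also known as the laminin receptor, was at -0.31 ± 0.12 (SE, adjusted p = 0.0553, limma).

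At the other end, Rps27, a zinc-finger protein of the small subunit, had the highest T-PNU minus T-DM1 difference, 0.17 ± 0.21 (SE, adjusted p = 0.527, limma). It ran from 14.57 to 15.70 in T-PNU and from 14.59 to 15.17 in T-DM1 samples, and untreated B1 reached 15.94. Rpl39l (0.08), Rps24 (0.06) and Rpl39 (0.06) followed, and none of them passed.

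Of 8 members with a known role besides translation, 0 passed the test in T-PNU against T-DM1. Of all genes 17.4% were lower and 12.4% higher. At such shares, 8 genes are too few for a count of 0 to set them apart. Rpl10 is one of the 8, with the values given before. Rps6, the substrate of S6 kinases, was at -0.12 in T-PNU against T-DM1. Rpl5 and Rpl11, which bind Mdm2 when ribosome assembly is disturbed, were at -0.03 and -0.14. Rpl13a, which takes part in the interferon response, was at -0.16, the ubiquitin fusion gene Rps27a at -0.07, Rps3 at -0.09 and Rpl38 at -0.20.

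The count of 19 depended on single libraries. It was 10 without T-PNU H1, where 11.8% of all genes were lower, and 26 without T-PNU C2, where 13.3% were lower. In all 24 fits that left out 1 sample, 10 members stayed called: Rpl3, Rpl7a, Rpl10a, Rpl13, Rpl15, Rpl34, Rpl35, Rpl37, Rps2 and Rps26. Leaving out an untreated or trastuzumab sample could change only the estimate of spread, not the difference itself. Over the 20 samples 24 members (28.9%) were lower, against 20.1% of all genes. Both groups keep all 6 samples there, so the differences are the same and only the estimate of spread changed.

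Across the members the T-PNU minus T-DM1 difference fell with the GC content of the transcript (Pearson r = -0.46, Spearman rho = -0.50, n = 83 genes, which share the same 12 libraries). The same relation held more weakly over the 16930 genes with an annotated transcript (r = -0.27, rho = -0.28). The 19 called members had a median GC of 54.2% against 50.6% for the other 64, a similar transcript length (median 860 against 886.5 bases), and an oligopyrimidine start in 9 of 14 with a window, against 20 of 48. With the trend on GC over all genes removed from each sample, r over the members was 0.0635. In that fit 23 members were lower, 18 of them among the 19, against 17.3% of all genes, and the median difference was -0.18. Rpl36 stayed lower at -0.54 (adjusted p = 0.0309, limma), and Rpl8 no longer passed.

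**Figure D5:**
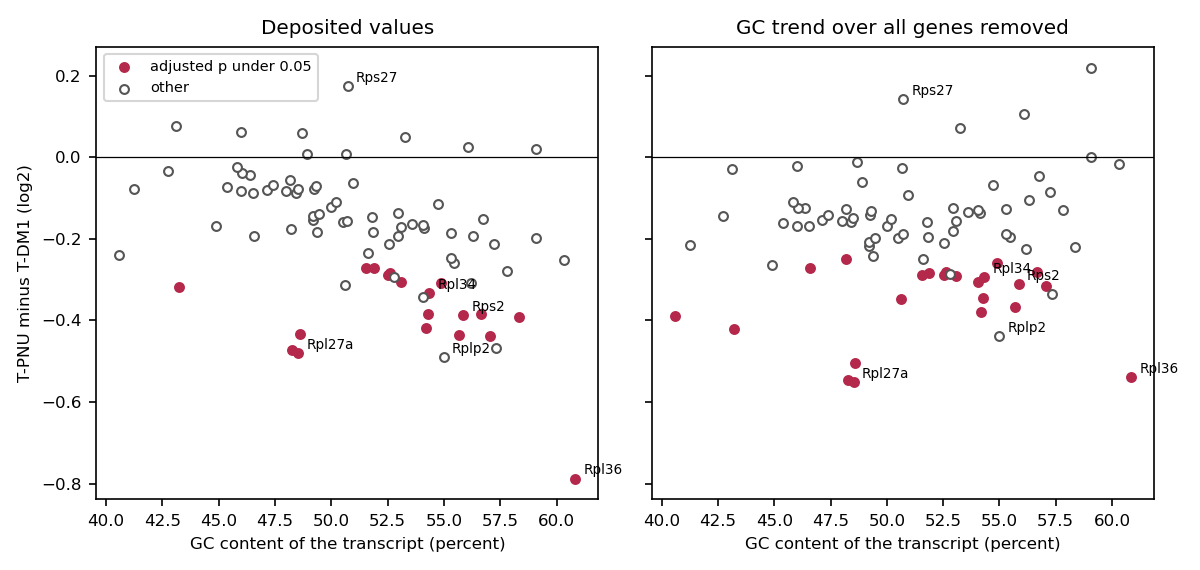
T-PNU minus T-DM1 difference of each of the 83 members (log2) against the GC content of its transcript (percent), from the deposited values (left) and with the GC trend over all genes removed from each sample (right); filled points have an adjusted p under 0.05. The slope on the left (r = -0.46) is absent on the right (r = 0.0635), and 23 filled points remain below 0.

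Cell type markers also moved between these groups, where 17.4% of all genes were lower and 12.4% higher in T-PNU than in T-DM1. Of the 4 pan-immune markers 3 were higher in T-PNU than in T-DM1 and 0 lower, with a median log2 difference of 0.41. Of the fibroblast and stroma list 6 of 8 genes were lower in T-PNU than in T-DM1, and their summed linear values ran from 31687 to 83528 in T-PNU, from 118515 to 163041 in T-DM1, from 43294 to 100674 in untreated and from 68498 to 119328 in trastuzumab samples. Of the macrophage and monocyte list 6 of 10 were higher, with sums of 302912 to 478561 in T-PNU, 195938 to 284856 in T-DM1, 190580 to 604640 in untreated and 337379 to 417595 in trastuzumab samples. All 5 measured NK genes and 3 of 4 endothelial genes were higher, whereas 0 of 8 T cell and 0 of 8 B cell genes passed (median log2 differences 0.83 and 1.00). Of the tumor epithelial list 3 of 8 were higher and 1 lower. Its sums, in which the most abundant genes weigh most, went the other way. They ran from 5630 to 12694 (median 10467) in T-PNU and from 12085 to 18148 (median 15524) in T-DM1 samples. Untreated samples ran from 7644 to 14936 and trastuzumab samples from 8878 to 13328. Over all 24 samples, the level of the macrophage and monocyte list ran against the joint level of the members (r = -0.72, rho = -0.62, and -0.68 without B1 and H2, the samples farthest from the median). So did the neutrophil (r = -0.65, rho = -0.53, and -0.52 without B1 and H2) and endothelial lists (r = -0.64, rho = -0.63, and -0.62 without them). The plasma cell list ran with it (r = 0.62, rho = 0.57, and 0.55 without them). The other lists had r from -0.48 to 0.45. The part of these cell types in the result was not tested.

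T-DM1 against untreated samples gave 1 member, Rpl36, higher at 0.82 ± 0.24 (SE, adjusted p = 0.0416, limma), where 4.11% of all genes were higher. No member was lower, against 2.15% of all genes. The median of the 83 differences was 0.06 against -0.02 over all genes, and 51 were above 0. Rplp1 (0.60) and Rplp2 (0.58) came next and did not pass (adjusted p = 0.113 and 0.0848, limma). Rpl36 no longer passed without any one of untreated A1, C1 or F1 or T-DM1 C3, D3, E3, F3 or G3. It also lost its call over the 20 samples and with the GC trend removed (0.50, adjusted p = 0.170, limma), and over the members this difference rose with GC content (r = 0.56, against 0.49 over all genes).

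T-PNU against untreated samples gave 0 called members over the 24 samples, where 0.188% of all genes were called. At an unadjusted p under 0.05 (limma) there were 14 of the 83 members and 4218 of the 16996 genes. The median difference was -0.13 against 0.01 over all genes, and 70 of 83 were below 0. Without untreated B1 the mean joint level was -0.05 in untreated samples, against -0.08 in T-PNU samples. With samples left out in turn, the median ran from -0.20 to -0.04. Over the 20 samples, which do not include B1, it was -0.08, with 59 of 83 below 0. Over the 20 samples 6 members (7.23%) were lower, against 15.7% of all genes: Rps2 (-0.35), Rpl22l1 (-0.32), Rpl34 (-0.26), Rpl7l1 (-0.25), Rpl3 (-0.25) and Rpl10 (-0.21). Without untreated C1 alone, 11 were lower, where 9.68% of all genes were. Over all 24 samples the lowest differences were those of Rps2 (-0.30), Rpl22l1 (-0.29) and Rpl34 (-0.27), and the highest those of Rps4l (0.28), Rplp1 (0.13) and Rplp2 (0.09).

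T-PNU against trastuzumab gave 0 called members, where 0.00588% of all genes were called. At an unadjusted p under 0.05 (limma) there were 1 of the 83 members and 3308 of the 16996 genes. The median difference was -0.01, against 0.01 over all genes, with Rpl36 (-0.22), Rpl35 (-0.19) and Rpl37 (-0.19) lowest and Rps27 (0.27), Rps24 (0.13) and Rpl9 (0.11) highest. Over the 20 samples Rpl7l1 (-0.25) and Rps2 (-0.25) were lower, where 13.5% of all genes were.

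Trastuzumab against untreated samples gave 0 called members, where 0.259% of all genes were called. At an unadjusted p under 0.05 (limma) there were 6 of the 83 members and 1491 of the 16996 genes. The median was -0.09 against -0.01, and 71 of 83 were below 0, with Rps24 (-0.23), Rps27a (-0.23) and Rpl17 (-0.22) lowest. Without untreated B1 the mean joint level was -0.05 in untreated samples, close to the -0.06 of trastuzumab samples. With samples left out in turn, the median ran from -0.14 to -0.01. Over the 20 samples, which do not include B1, it was -0.07, with 66 of 83 below 0. T-DM1 against trastuzumab gave 0 called members, where 0.647% of all genes were called. At an unadjusted p under 0.05 (limma) there were 19 of the 83 members and 2604 of the 16996 genes. There 80 of 83 differences were above 0, with a median of 0.16 against 0.00 over all genes, and Rpl36 (0.57), Rplp1 (0.46) and Rplp2 (0.41) highest. The comparisons share samples, so their directions are not independent of each other.

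Tested over all 4 groups at once with the moderated F test, 6 members (7.23%) differed, where 18.8% of all genes did: Rps2 (adjusted p = 0.0150, limma), Rpl37, Rpl34, Rpl3, Rpl36 and Rps26. Over the 20 samples 13 members (15.7%) differed, where 40.8% of all genes did.

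In 6 paralog pairs the minor form was set against its partner within each sample, which does not depend on the scaling of samples. Rpl22l1 minus Rpl22, on the log2 scale, was -1.61 ± 0.0813 (SD, n = 6) in T-PNU, -1.45 ± 0.21 (SD, n = 6) in T-DM1, -1.44 ± 0.20 (SD, n = 6) in trastuzumab and -1.50 ± 0.25 (SD, n = 6) in untreated samples. Rps27l minus Rps27 was -3.59 ± 0.66 (SD, n = 6) in T-PNU and -3.36 ± 0.59 (SD, n = 6) in untreated samples. Rpl7l1 minus Rpl7 was -2.83 ± 0.25 (SD, n = 6) and -2.71 ± 0.19 (SD, n = 6) in the same groups. For Rps27l and Rpl7l1 these group means lay within 1 SD of each other. Rpl22l1 minus Rpl22 differed by -0.17 between T-PNU and trastuzumab samples (exact permutation test, p = 0.0606, adjusted p = 0.403). Over the 20 samples that difference was -0.26, with the smallest p possible there (exact permutation test, p = 0.00476, adjusted p = 0.143). In T-PNU samples Rpl3l was at -11.49, Rps4l at -10.75 and Rpl39l at -9.91 relative to their partners.

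Over 30 tests, 5 comparisons of each of 6 pairs, 0 passed with adjustment over the 30, and 2 had an unadjusted p under 0.05 (two-sided exact permutation tests, smallest possible p 0.00216). The lowest was Rpl39l minus Rpl39 in trastuzumab against untreated samples, 0.42 higher (exact permutation test, p = 0.0195, adjusted p = 0.403). The other was Rpl3l minus Rpl3 in T-PNU against T-DM1 samples, 0.30 higher (exact permutation test, p = 0.0411, adjusted p = 0.403). Rpl3l itself averaged 3.69 in T-PNU and 3.66 in T-DM1 samples, and Rpl3 15.18 and 15.45, so the difference lay mostly in Rpl3. Both minor forms, Rpl39l and Rpl3l, were at low values. These tests do not show that the pairs kept a fixed ratio.

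Other genes of the ribosome pathway were read in the same fits, where 17.4% of all genes were lower and 12.4% higher in T-PNU than in T-DM1, with a median difference of 0.03. Of the 4 ribosomal protein genes that the naming rule leaves out, Rack1 among them, 0 passed in T-PNU against T-DM1, with 4 of 4 below 0 and a median of -0.22. Of 20 translation factors and other genes with TOP mRNAs, 9 were lower and 0 higher. They included the elongation factor subunits Eef1d (-0.38) and Eef1g (-0.38), the initiation factors Eif4b (-0.31), Eif3h (-0.33) and Eif3l (-0.33), and Naca (-0.29) and Btf3 (-0.31), which bind nascent chains. Their median was -0.22.

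Of 39 ribosome assembly factors 12 were lower and 1 higher in T-PNU than in T-DM1, with a median of -0.14. Gar1 (-0.51) and Nhp2 (-0.42), components of the RNA pseudouridylation complex, and Nop16 (-0.42) and Nob1 (-0.38), which act in maturation of the large and small subunit, were among those lower, and Utp14a (0.29) was higher. Of 77 mitochondrial ribosomal protein genes 26 were lower and 0 higher, with a median of -0.14 and 70 below 0. Of 15 RNA polymerase I and III genes 4 were lower and 2 higher, with a median of 0.01.

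Of 21 regulators of ribosome production 2 were lower and 1 higher, with a median of 0.04. Myc, the transcription factor that drives ribosome production, was lower by a log2 difference of -0.89 ± 0.16 (SE, adjusted p = 0.00134, limma), and Eif4ebp1, a translation repressor that mTOR inactivates, was at -0.58 (adjusted p = 0.00675, limma). The kinase gene Rps6kb1 was higher by 0.27 (adjusted p = 0.0439, limma). In T-DM1 against untreated samples Myc was higher by 0.58 (adjusted p = 0.0333, limma) and Tsc2 by 0.24, whereas Gabpa, an ETS factor, was at -0.20 and passed as well. In T-PNU against untreated samples over the 24, where 0.188% of all genes were called, these lists had 0 called genes.

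The gene outside the list whose values were most like the joint level of the members was Rack1, a scaffold protein bound to the small subunit (Pearson r = 0.98 over the 24 samples, Spearman rho = 0.97, and r = 0.97 without B1 and H2). It was followed by LOC102634709 (0.94), Raly (0.91), Gm15772 (0.91), Nt5c3b (0.90), Ptma (0.89), Suds3 (0.89), the elongation factor subunit gene Eef1b2 (0.88), H2afv (0.87) and Prkrip1 (0.87). The most opposite were Lpin2 (-0.90), Nfe2l2 (-0.89), Dnajb14 (-0.88), Fmnl2 (-0.88) and Gsap (-0.87). These genes were picked for their correlation, which is therefore a description.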

How the data were processed

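RNA of CD45+ cells from 24 tumors was sequenced from stranded mRNA libraries, 1 per mouse. Per the submitters' processing notes the authors used STAR 2.4.2a, featureCounts (Subread 1.5.0), Picard and DESeq2 with the mm10 build. By the methods of the study, counting used strand, and genes averaging under 5 counts were removed. The deposited values of 16996 genes are log2 values that the authors normalized for library size. The transformation is not given in the sources used here, and shrunken values understate the changes of low genes. Groups came from the treatment labels. Replicates had no shared numbers, so samples were not paired.

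Linear models were fitted over all genes and 4 groups with limma 3.58.1 in R 4.3.3 (eBayes with a trend), Benjamini-Hochberg adjusted per comparison and called at an adjusted p under 0.05. Paralog differences were compared by exact permutation tests (Python 3.11.15, scipy 1.17.1). Figures used matplotlib 3.10.9. GENCODE M21 held 99.6% of the identifiers and gave positions, length and GC content. Start windows came from RefSeq (GRCm38.p6), for 62 of the 83 members. The fit was tested on simulated data. Joint levels average log2 deviations, and summed linear values add 2 to the power of each value.

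Members and lists were chosen with earlier results of these data known. Genes named were the paralogs, stalk genes, genes with other roles, the 3 highest and 3 lowest in each comparison, per length and by SD, and the genes most like and unlike the members. Genes called in a comparison were listed too, and single genes of the lists were named after their values were seen. Alternatives were 20 samples, 2 scalings, a filter on low values, no trend, 2 groups at a time, sample weights, a stricter threshold and each sample left out. Removal of the GC trend (loess, span 0.3, 66 genes without GC content unchanged) and the alternatives for paralogs were chosen after seeing the data. Some genes are not reported singly here and are unlabelled in the figures.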

Additional observations from a re-analysis of the deposited data

Results flagged for a closer look

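In groups of 6, a sample was taken as standing apart where its gap to the nearest other sample, divided by the range, passed Dixon's critical value of 0.625. Of 160 groups tested, over the joint level, the share of summed values and 38 named members, 20 were picked out (12.5%), where chance picks about 1 in 20. The measures share samples and are correlated, so the 20 are not separate findings.

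Untreated B1 accounted for 10 of them, always as the highest of its group. Its joint level was 0.40, against at most 0.05 in the 5 other untreated samples. Its values were 15.94 for Rps27 (others 14.59 to 14.82), 15.90 for Rps24, 15.70 for Rpl17, 15.47 for Rpl9, 15.95 for Rps3, 15.37 for Rpl13a, 15.30 for Rpl5, 14.81 for Rps6 and 12.03 for Rpl27a. T-PNU C2 was highest in its group for Rpl22 (13.67), Rpl9 (15.26), Rps27a (14.83) and Rps4x (15.75). Trastuzumab A3 was highest for Rpl10 (15.13), Rpl7 (15.27) and Rps27a (14.91).

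Rps2 was lowest in untreated C1 at 13.77, where the other 5 ran from 14.15 to 14.25, and in T-PNU H1 at 13.54, where the others ran from 13.84 to 13.90. Rps27l was highest in untreated A1 at 11.86. Untreated B1 and C1 are 2 of the 4 samples not shown in the heatmaps of the study.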

How the results depend on the processing

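The medians of the members moved by less than 1 within-group SD of the samples' median deviation (0.17) in every alternative run. That SD is about as large as the largest median, -0.17 for T-PNU against T-DM1, and larger than the size of the others. Most medians could thus reach 0 and still count as not moved, so this limit says little about how stable they are. With samples left out in turn they ran from -0.24 to -0.14 (T-PNU against T-DM1), -0.20 to -0.04 (T-PNU against untreated), 0.02 to 0.12 (T-DM1 against untreated), -0.14 to -0.01 (trastuzumab against untreated), -0.08 to 0.03 (T-PNU against trastuzumab) and 0.13 to 0.21 (T-DM1 against trastuzumab). Counts moved more. Leaving out samples in turn gave 10 to 26 members for T-PNU against T-DM1, 0 to 11 for T-PNU against untreated, 0 to 4 for T-DM1 against untreated (4 without H3, where 5.48% of all genes were higher), 2 to 15 for the test over 4 groups (where 8.45% to 28.1% of all genes were called), and 0 for the others and the paralogs.

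Over the 20 samples the counts were 6 (T-PNU against untreated), 0 (T-DM1 against untreated), 2 (T-PNU against trastuzumab) and 13 (4 groups). With sample weights, lowest for untreated B1 (0.215), they were 13, 12 and 0 for the first 3 of these comparisons, with 34 for T-PNU against T-DM1, 8 for T-DM1 against trastuzumab and 31 for the 4 groups, where 34.2%, 19.4%, 13.3%, 44.6%, 7.25% and 50.9% of all genes were called. Centring on the other genes gave 3 over the 4 groups (17.3% of all genes) and 16, all lower, for T-PNU against T-DM1, where 18.7% of all genes were then higher and 13.1% lower (12.4% and 17.4% as deposited). For T-DM1 against untreated it gave 3.08% higher and 3.8% lower (4.11% and 2.15% as deposited). There Rpl36 alone stayed called, and GC removal gave 0. At an adjusted p under 0.01 and a fold above 2, 0 members passed in any comparison. The cause of these moves was not tested, beyond fewer samples. Scaling moved the median of all genes by less than 0.1. The median for T-PNU against trastuzumab, near 0, changed sign with several samples left out, over the 20 samples (0.00) and with centring (0.02). Of the counts and medians under alternatives 39 moved and 384 did not, by a limit that medians of this size could hardly pass. No called member changed direction, and of their values 547 kept and 53 lost the call. Depth is unknown, so what it limits could not be stated. No paired analysis was possible because the labels carry no replicate numbers shared by the groups.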
